A study of Homo sapiens with 10 samples.

Results

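The RGS genes encode regulators of G-protein signalling, and 10 of them (RGS1, RGS2, RGS3, RGS10, RGS12, RGS13, RGS14, RGS16, RGS18 and RGS19) are described here across the RNA libraries of 697 cells, a human pre-B leukaemia line. They were taken by symbol from a table of 27142 genes. All 10 were found, among 21 listed symbols made of RGS and a number. The set was drawn up with the response to TPA in view, because RGS1 and RGS2 are among the largest rises of the table. The change of the members with TPA is therefore given as a description, with no p, and nothing is supported by it.

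The study grew parental 697 cells in serum-supplemented medium and left them untreated or gave them TPA, a phorbol ester that activates protein kinase C. There were 2 control and 2 TPA RNA libraries, all from the parental line. The dose was 0.5 µg of TPA per ml. The time is labelled only as a range of 0 to 24 h, so the duration behind the TPA libraries is not known. Of 10 samples in the series, the other 6, which were ChIP-seq and input DNA libraries, were not analysed here. No label says that replicates were separate cultures, so the spread between them may be technical.

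Receptors with 7 membrane passes signal through heterotrimeric G proteins, whose α subunit is active while it holds GTP. An RGS protein binds the active α subunit, speeds up the hydrolysis of its GTP and so shortens the signal. In B cells RGS proteins are known for setting how strongly and how long cells respond to chemokines, and RGS1 and RGS13 are associated with activated and germinal centre B cells. The members belong to 3 subfamilies: the short R4 proteins (RGS1, RGS2, RGS3, RGS13, RGS16 and RGS18), the R12 proteins (RGS10, RGS12 and RGS14) and the RZ protein RGS19.

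Each library gave 1 value per gene in RPKM, a read count scaled to transcript length and library size, so levels can be compared between genes. Summed RPKM ranged from 349438 to 388846 per library. The values of microRNA hairpin genes, whose lengths are known, lay on steps of 1 read, and these steps showed that 1 RPKM stood for 42.3 to 46.3 reads per kilobase of transcript, depending on the library. All 11 B-lineage markers checked were above 1 RPKM in at least 1 library, with sums of 1387 and 1431 RPKM in control and 1347 and 1510 RPKM with TPA. The near-equal sums hide opposite moves: the pre-B gene VPREB1 fell from 347 to 13.6 RPKM and the B-cell receptor gene CD79A rose from 208 to 858 RPKM (means). Of 7 T-cell markers none exceeded 0.044 RPKM, and of 5 erythroid markers none exceeded 0.109 RPKM. The 8 myeloid markers summed to 0.667 and 0.944 RPKM in control and to 3.13 and 3.81 RPKM with TPA. The highest of them was CSF1R, at 0.548 and 0.706 RPKM in control and 2.93 and 3.66 RPKM with TPA, while MPO, LYZ, S100A8 and S100A9 stayed at or below 0.077 RPKM. Of 5 megakaryocyte and platelet markers GP9 was the highest (0.996 to 1.28 RPKM over the 4 libraries), and PF4 and PPBP were listed at 0. The part of the CSF1R difference in any result was not tested.

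In untreated cells the RGS transcripts came mainly from the R12 and RZ subfamilies, whereas with TPA nearly all came from the R4 subfamily. This rested on few genes: RGS10 held 37.7% and 40.6% of the control sums. With TPA, RGS2 held 65.0% and 65.2% and RGS1 held 23.3% and 23.6%. RGS1, RGS2, RGS13, RGS3 and RGS16 were higher with TPA in both libraries than in either control, RGS10 and RGS19 were lower, the groups of RGS12 and RGS14 overlapped, and RGS18 was listed at 0 throughout. Of the 9 members with at least 1 RPKM in at least 2 libraries, limma on log2(RPKM + 1) called 7 at an adjusted p under 0.05, 5 higher and 2 lower, against 58.2% of all 12159 genes tested, 28.4% higher and 29.8% lower. Groups without overlap were found for 7 members, 5 above and 2 below, against 79.8% of all genes tested, 38.8% above and 41.0% below. These counts come from the fit over all genes and nothing is read from them, since the members were chosen on this contrast and RGS1 and RGS13 passed the minimum only through their TPA libraries. In a bulk sample, more cells that express a gene and more RNA per cell cannot be told apart.

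**Figure D1:**
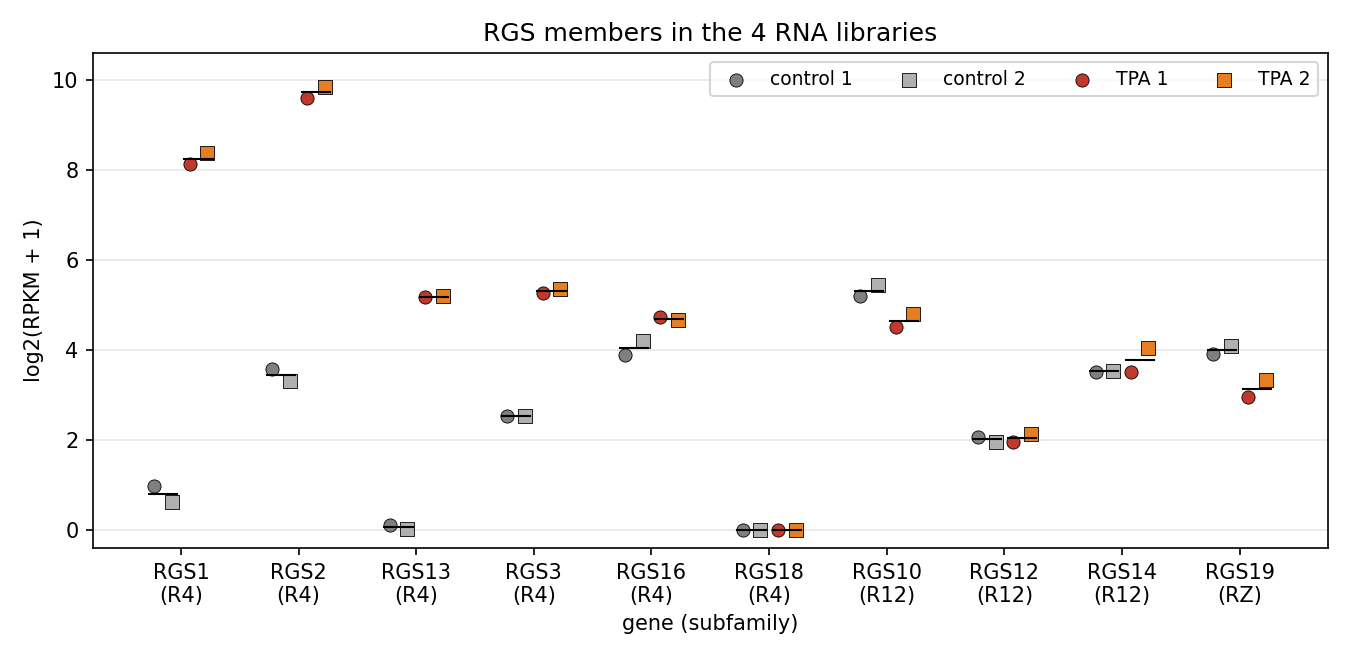
Values of the 10 RGS members as log2(RPKM + 1) in the 2 control libraries (grey) and the 2 TPA libraries (red and orange), with a short line at each group mean and the subfamily under each symbol. RGS1, RGS2 and RGS13 are farthest apart between groups, RGS10 and RGS19 lie lower with TPA, and RGS18 stays at 0.

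RGS1, an R4 protein that limits responses to chemokines, had 0.976 and 0.549 RPKM in the control libraries and 279 and 332 RPKM in the TPA libraries. The control values correspond to 45.2 and 24.7 reads per kilobase, so they were low but counted. The TPA mean of 306 ± 37.6 RPKM was 401 times the control mean of 0.762 ± 0.302 RPKM (± SD over 2 libraries, like all means given here). Its log2 difference was 7.45 (SE 0.167), the rank 2 rise of the genes tested, and it lay between 7.27 and 7.62 when any 1 library was left out. With 2 libraries a group, such ranges restate the spread between replicates, here and for the members below, and do not measure stability.

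RGS2, an R4 protein that acts chiefly on the Gq class of α subunits, was the member with the highest level after TPA. Control cells gave 10.9 and 8.98 RPKM, and TPA cells 781 and 917 RPKM. Unlike RGS1, it was plainly present before treatment. The TPA mean of 849 ± 96.5 RPKM was 85.4 times the control mean of 9.94 ± 1.36 RPKM, and exceeded that of 99.8% of all listed genes. The log2 difference of RGS2 was 6.28 (SE 0.155), the rank 9 rise.

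The balance between these 2 members also differed between the groups. RGS2 stood at 11.2 and 16.4 times the level of RGS1 in the control libraries and at 2.80 and 2.76 times with TPA. The ratio was close in the TPA replicates and wider in the controls, where RGS1 was near its lowest values.

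RGS13, a short R4 protein known from germinal centre B cells and mast cells, was nearly without signal in control, at 0.084 and 0.014 RPKM, and reached 35.0 and 35.6 RPKM with TPA. The control values correspond to 3.89 and 0.631 reads per kilobase, too few for a ratio to carry meaning, and none is given. Its TPA libraries were close to one another, with an SD of 0.416 RPKM around a mean of 35.3 RPKM. The log2 difference of 5.11 (SE 0.128) depended on the constant added before the logarithm and was 7.93 with 0.1 in place of 1.

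RGS3, an R4 member with several isoforms, stood at 4.83 and 4.81 RPKM in control and at 37.3 and 40.3 RPKM with TPA. Its TPA mean of 38.8 ± 2.13 RPKM was 8.05 times the control mean of 4.82 ± 0.0127 RPKM. Both TPA libraries were well above both controls. The table holds 1 value for the gene, under 1 transcript accession, so the isoforms of RGS3 cannot be separated.

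RGS16, an R4 protein induced in activated lymphocytes, differed far less. Its control libraries held 13.8 and 17.5 RPKM and its TPA libraries 25.6 and 24.4 RPKM, a TPA mean 1.60 times the control mean. The groups did not overlap, but the control replicates differed by 0.316 on the log2 scale beside a difference of 0.65 (SE 0.151) between groups. The difference of RGS16 lay between 0.49 and 0.81 when any 1 library was left out.

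RGS18, an R4 protein of megakaryocytes and platelets, was listed at 0 in all 4 libraries. Its row carries RGS13 as an alias, and rows were matched by their leading symbol only, so the 2 genes were kept apart.

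The 3 members farthest apart between groups are neighbours. RGS18, RGS21, RGS1, RGS13 and RGS2 follow one another along band 1q31.2, in that order in RefSeq (GRCh38.p14). RGS18 and RGS21 were at 0 in every library, and RGS1, RGS13 and RGS2 were the ones high with TPA. The microRNA gene MIR4426, which RefSeq places inside the ribosomal protein pseudogene RPS27AP5, lies between RGS13 and RGS2. Its control values of 355 and 450 RPKM overlapped the TPA values of 425 and 526 RPKM, and it did not pass (limma, adjusted p = 0.265). How reads shared with the ribosomal protein gene were counted there is not known, so its level is uncertain. The listed gene just past RGS2, LINC01032, was at or below 0.201 RPKM, and LINC01720, on the other side of RGS18, was at 0.

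Farther along the band the differences were smaller. UCHL5, a deubiquitinase gene, fell from 73.5 ± 5.58 to 38.4 ± 4.01 RPKM (log2 difference -0.92, SE 0.143, adjusted p = 8.85e-04). TROVE2 and CDC73 rose with log2 differences of 0.44 (limma, adjusted p = 0.0329) and 0.40 (adjusted p = 0.0460), and GLRX2 did not pass. Both rises lay near the threshold of 0.05, and no neighbour gene was followed under other settings. Of the 5 genes of 1q31.2 that were tested and are no member, 2 rose, 1 fell and 2 did not pass. Of all genes tested 58.2% passed, 28.4% higher and 29.8% lower. The log2 differences of the 5 genes ran from -0.92 to 0.44, beside 6.28, 7.45 and 5.11 for RGS2, RGS1 and RGS13. The member set was drawn up with this contrast in view, so nothing is read from the gap.

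RGS16 lies in 1q25.3, next to the noncoding gene LINC01686 and then RGS8. LINC01686, at 0.029 and 0 RPKM in control against 0.701 and 1.08 RPKM with TPA, was too low to be tested, and RGS8 and RGSL1 were at or below 0.012 RPKM. Of the 19 other genes of 1q25.3 tested, 9 rose, 3 fell and 7 did not pass, with a median log2 difference of 0.07. Of all genes tested 58.2% passed, 28.4% higher and 29.8% lower, with a median of -0.02.

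**Figure D2:**
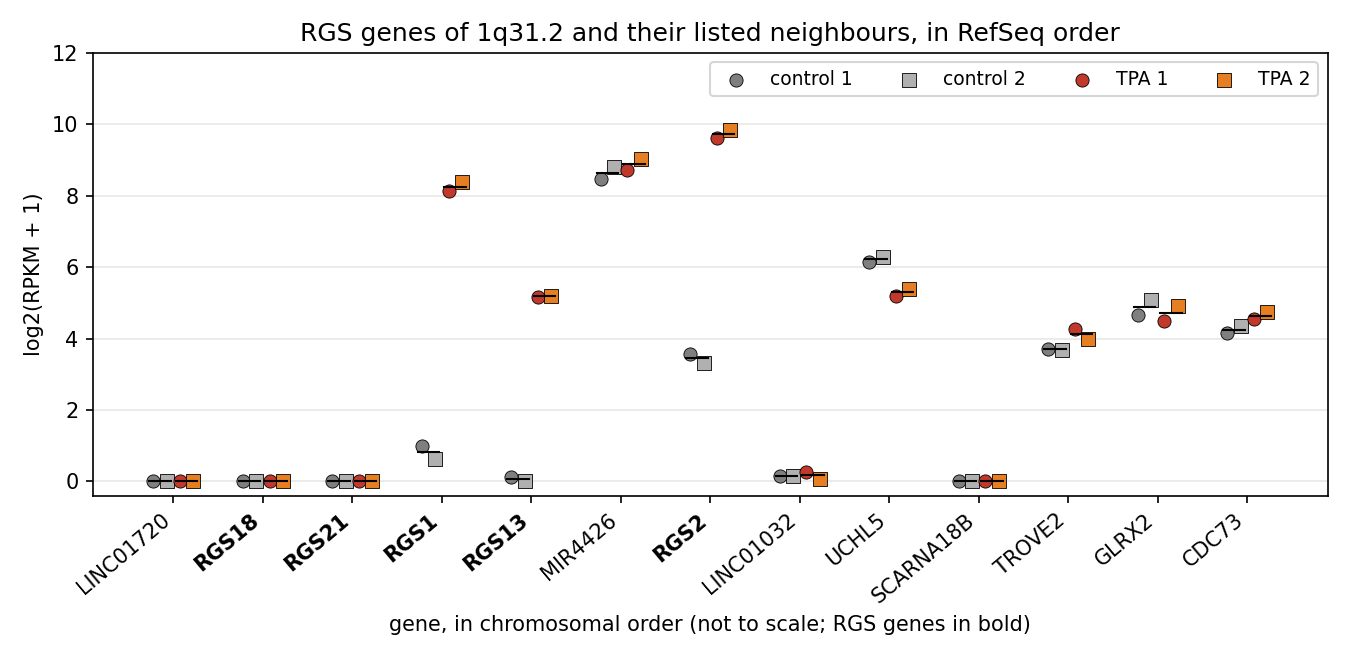
log2(RPKM + 1) of the listed genes around the RGS genes of 1q31.2, in RefSeq order and not to scale, with control libraries in grey and TPA libraries in red and orange. RGS1, RGS13 and RGS2 stand high with TPA between RGS18 and RGS21, which are at 0, and UCHL5, which is lower with TPA.

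The sequences before the starts of the chromosome 1 members that were higher with TPA are shown so that the 3 neighbours of 1q31.2 can be compared with one another and with RGS16, which lies in another band. Each is the 250 bases up to the RefSeq start (GRCh38.p14), read 5′ to 3′ on the gene's strand, with letters that match a searched motif in capitals. The windows are chr1:192575523-192575772 (plus strand) for RGS1, chr1:192635897-192636146 (plus strand) for RGS13, chr1:192808789-192809038 (plus strand) for RGS2 and chr1:182604390-182604639 (minus strand) for RGS16.
RGS1: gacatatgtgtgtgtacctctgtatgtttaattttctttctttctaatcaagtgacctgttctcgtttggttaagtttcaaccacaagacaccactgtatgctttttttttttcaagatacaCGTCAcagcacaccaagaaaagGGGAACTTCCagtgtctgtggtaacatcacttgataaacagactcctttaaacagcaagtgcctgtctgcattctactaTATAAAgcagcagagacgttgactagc
RGS13: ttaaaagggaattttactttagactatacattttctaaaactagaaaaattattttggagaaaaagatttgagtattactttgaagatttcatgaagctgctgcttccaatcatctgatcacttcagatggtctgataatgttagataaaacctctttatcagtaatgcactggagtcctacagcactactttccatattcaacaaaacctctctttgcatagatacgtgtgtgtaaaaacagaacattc
RGS2: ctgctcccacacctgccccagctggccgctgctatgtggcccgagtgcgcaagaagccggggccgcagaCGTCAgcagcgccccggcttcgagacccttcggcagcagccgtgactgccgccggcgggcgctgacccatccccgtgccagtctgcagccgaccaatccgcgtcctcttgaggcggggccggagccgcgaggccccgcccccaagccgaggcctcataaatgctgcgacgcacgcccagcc
RGS16: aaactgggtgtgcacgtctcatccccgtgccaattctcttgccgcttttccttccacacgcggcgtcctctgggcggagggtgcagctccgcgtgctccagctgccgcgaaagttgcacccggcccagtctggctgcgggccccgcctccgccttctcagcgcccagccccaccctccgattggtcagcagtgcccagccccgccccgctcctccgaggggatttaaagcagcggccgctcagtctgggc

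The windows of RGS1 and RGS13 held 39.2% and 32.0% G and C, and those of RGS2 and RGS16 held 72.8% and 68.4%, around a median of 58.0% over 35116 RefSeq windows. The silent neighbours RGS18 and RGS21 had 34.8% and 27.2%. The search covered 8 motifs on both strands: AP-1 (TGANTCA), CRE (TGACGTCA), its part TGACG, which every CRE match also holds, E-box (CACGTG), EGR (GCGTGGGCG), TATAAA, and the CArG box and NF-κB site by their usual consensus. The RGS1 window held 1 NF-κB consensus match (also in 9.96% of all windows) and 1 TATAAA (in 10.7%), which began 27 bases before the start. That window also held 1 TGACG on the other strand, printed as CGTCA (in 21.2%). These percentages count a match anywhere in a window, on either strand, and not at a given position. The RGS2 window held 1 TGACG, also on the other strand. Members that were not higher with TPA had matches too. The windows of RGS12 held 1 NF-κB consensus match and 1 TGACG, and those of RGS19 held 1 E-box. The windows of RGS3 held 1 TGACG, 1 TATAAA and 1 E-box. No letters of the 8 motifs were found in the windows of RGS13 and RGS16, and none of AP-1 (in 6.57% of all windows) in any of the 20 windows of the 10 members. These are matches of letters and not measured binding.

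Among the R12 members, RGS10 was lower with TPA, and the groups of RGS14 and RGS12 overlapped. RGS10, a short protein of immune cells and brain, had the highest control level of all members, at 35.6 and 42.4 RPKM, and 21.8 and 26.8 RPKM with TPA. Both TPA values lay below both controls, and the control mean of 39.0 ± 4.78 RPKM was 1.61 times the TPA mean of 24.3 ± 3.57 RPKM. The log2 difference of RGS10 was -0.66 (SE 0.159), and it lay between -0.81 and -0.52 when any 1 library was left out.

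RGS14, which also binds inactive α subunits through a GoLoco motif, gave 10.4 and 10.7 RPKM without TPA, against 10.4 and 15.4 RPKM with it. TPA replicate 1 was at the control level and TPA replicate 2 above it, so the groups overlapped. The log2 difference of RGS14 was 0.24 (SE 0.184). It was -0.02 without TPA replicate 2 and 0.51 without TPA replicate 1. RGS12, the largest of the R12 proteins, gave 3.21 and 2.90 RPKM without TPA and 2.90 and 3.40 RPKM with it, with overlapping groups and a log2 difference of 0.03 (SE 0.135).

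RGS19, also called GAIP, is the RZ member and acts on the Gi class of α subunits. Its values were 14.1 and 16.1 RPKM in control, against 6.72 and 9.10 RPKM after TPA. The control mean of 15.1 ± 1.40 RPKM was 1.90 times the TPA mean of 7.91 ± 1.68 RPKM, and the groups did not overlap. The log2 difference was -0.86 (SE 0.165), between -1.05 and -0.67 when any 1 library was left out.

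Ordered by level, the control libraries placed RGS10 above RGS16, RGS19, RGS14, RGS2, RGS3, RGS12, RGS1 and RGS13, with RGS18 at 0. RGS16 and RGS19 overlapped there, as did RGS14 and RGS2, while every other pair of neighbours was separated in both libraries. With TPA the order became RGS2, RGS1, RGS3, RGS13, RGS16, RGS10, RGS14, RGS19 and RGS12, and only RGS16 and RGS10 overlapped. RGS10 thus went from rank 1 to rank 6 and RGS2 from rank 5 to rank 1.

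The 21 listed RGS symbols together reached 94.4 and 104 RPKM in control, against 1201 and 1406 RPKM with TPA, a mean 13.1 times higher. RGS10 made up 37.7% and 40.6% of the control sums and 1.81% and 1.91% of the TPA sums. RGS2 made up 11.6% and 8.61% in control and 65.0% and 65.2% with TPA, and RGS1 went from 1.03% and 0.526% to 23.3% and 23.6%. The R12 and RZ members together held 67.1% and 69.1% of the control sums and 3.48% and 3.89% of the TPA sums. Their own summed level was 67.7 RPKM in control and 48.2 RPKM with TPA (means). Without RGS1, RGS2 and RGS13, the remaining 18 genes summed to 82.4 and 94.8 RPKM in control and 106 and 121 RPKM with TPA.

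**Figure D3:**
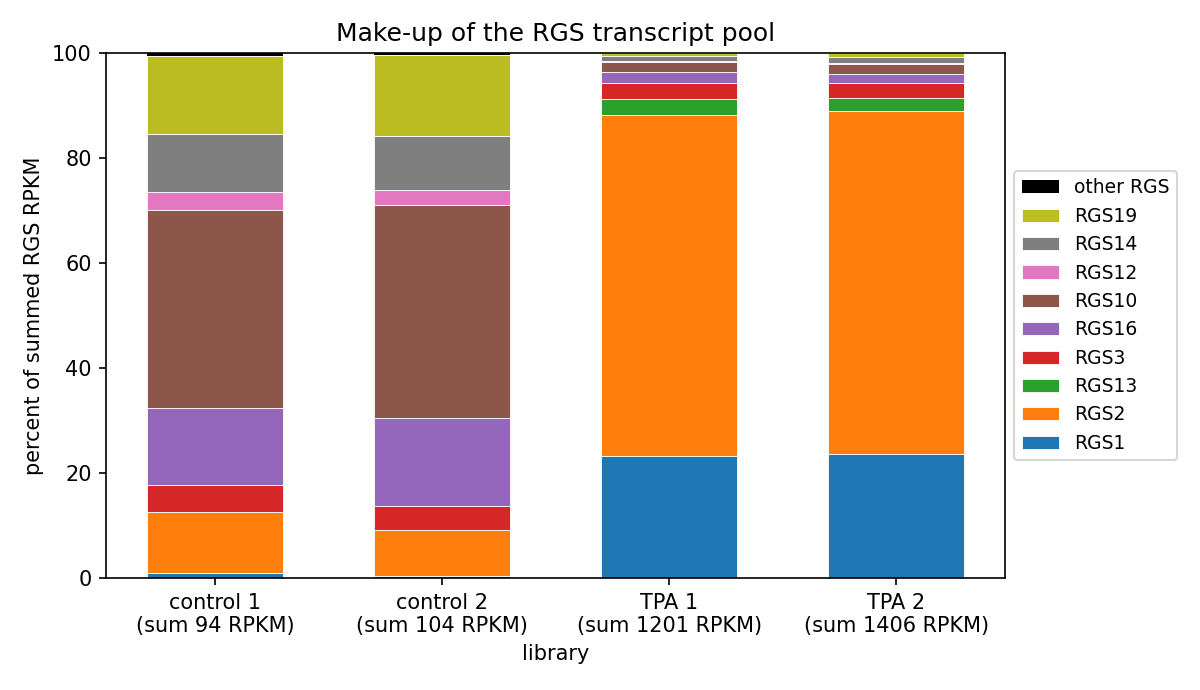
Percent of the summed RPKM of all 21 RGS genes held by each member in each library, with the sum under each bar and the 11 RGS genes that are no member in black. RGS10 is the largest share in both controls (37.7% and 40.6%) and RGS2 in both TPA libraries (65.0% and 65.2%).

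The rest of the family was close to silent. Of 14 further listed genes (11 RGS symbols, RGSL1, RGS7BP and RGS9BP), 3 were at 0 in all libraries, none reached 1 RPKM in any library and none was tested. The highest value among them was that of RGS5, at 0.645 RPKM in TPA replicate 2, against 0.352 RPKM in TPA replicate 1 and 0.359 and 0.443 RPKM in control. The R7 genes RGS6, RGS7, RGS9 and RGS11, whose products pair with the β subunit GNB5 mainly in neurons, stayed at or below 0.331 RPKM.

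Genes with the most similar values over the 4 libraries were sought by the Euclidean distance on log2(RPKM + 1), as a description of 4 points that share their libraries. Nearest to RGS1 was MS4A1, the CD20 gene, at a distance of 0.196, with 0.839 and 0.632 RPKM in control and 282 and 300.0 RPKM with TPA. PHLDA1 (1.42) and MB (1.73) followed at much larger distances. Nearest to RGS2 were FCMR, the gene of the IgM Fc receptor (1.32), the integrin gene ITGB2 (1.795) and CD52 (1.81), and RGS1 stood at rank 52. Nearest to RGS16 were RPS6KA3 (0.145), PPFIBP1 (0.193) and ATP2B1 (0.193). No member was among the 3 nearest genes of these 3.

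RGS proteins act on α subunits, and 33 genes of the heterotrimeric subunits were listed. Of the 20 tested, 3 rose, 10 fell and 7 did not pass, with a median log2 difference of -0.42, while 28.4% of all genes tested rose and 29.8% fell, with a median of -0.02. GNG12, 1 of the 3 that rose, had under 1 RPKM in both controls and was tested only because of its TPA values. GNAI1, an α subunit of the Gi class that inhibits adenylyl cyclase, fell from 29.3 ± 5.42 to 7.25 ± 2.39 RPKM (log2 difference -1.89, SE 0.217, adjusted p = 1.72e-04). The β subunit gene GNB4 fell from 24.2 ± 4.0 to 5.60 ± 1.24 RPKM. GNB5 fell from 5.83 ± 0.608 to 1.66 ± 0.291 RPKM. Of the γ subunit genes, GNG2 rose from 21.1 ± 2.0 to 43.2 ± 13.8 RPKM, GNG5 from 62.0 ± 4.15 to 98.8 ± 0.742 RPKM and GNG12 from 0.744 ± 0.115 to 2.62 ± 0.335 RPKM. GNAI1 and GNG2 did not pass when no minimum level was set.

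Of 43 listed leukocyte receptors of the G-protein-coupled family, 21 were tested: 12 rose, 3 fell and 6 did not pass. Of these, 6 that rose were under 1 RPKM in both controls and 1 that fell was under 1 RPKM in both TPA libraries, so their direction was fixed by the minimum level. GPR18 and CCR1, given below, are among those 6, and HRH2 is the 1 that fell, so nothing is read from their direction. The 14 that reached 1 RPKM in both groups divided into 6 that rose, 2 that fell and 6 that did not pass, with a median log2 difference of 0.24. Of all 11145 such genes, 25.4% rose and 29.5% fell, with a median of -0.04. GPR18, a receptor of lymphoid cells, rose from 0.404 ± 0.148 to 16.9 ± 1.09 RPKM (log2 difference 3.67, SE 0.140, adjusted p = 6.61e-07). The chemokine receptor gene CCR1 rose from 0.028 to 5.88 ± 0.586 RPKM, and LPAR6, a lysophosphatidic acid receptor gene, rose from 6.66 ± 0.407 to 59.8 ± 18.4 RPKM. CXCR4, the CXCL12 receptor gene that holds B-cell precursors in marrow, fell from 66.6 ± 14.2 to 29.6 ± 8.98 RPKM (log2 difference -1.16, SE 0.227, adjusted p = 0.00295). The histamine receptor gene HRH2 fell from 2.03 to 0.378 RPKM. GPR65, a proton-sensing receptor gene, fell from 6.14 ± 0.505 to 3.92 ± 1.17 RPKM (adjusted p = 0.0285), but its log2 difference of -0.56 was -0.48 without control replicate 2 and -0.31 without TPA replicate 1, and it passed in neither. CXCR4 and GPR65 also did not pass when no minimum level was set.

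Other proteins with an RGS domain or fold include the receptor kinases (GRKs), axins and RhoGEFs. Of 16 listed, 12 were tested: 3 rose, 4 fell and 5 did not pass, with a median log2 difference of -0.01. The 7 calls among 12 genes are close to the 58.2% called among all genes tested. ARHGEF1, which links the G12 and G13 α subunits to RhoA, rose from 43.3 ± 2.46 to 144 ± 9.59 RPKM (log2 difference 1.71, SE 0.136, adjusted p = 2.23e-05). The GRKs mark active receptors for arrestin, and 3 of them fell. GRK2 went from 122 ± 3.68 to 62.5 ± 11.7 RPKM, GRK3 from 18.1 ± 1.30 to 11.3 ± 0.487 RPKM, and GRK6 from 42.0 ± 0.194 to 23.5 ± 4.32 RPKM. GRK5 rose from 1.06 ± 0.225 to 2.33 ± 0.397 RPKM. SNX13, a sorting nexin gene, rose with a log2 difference of 0.44 (adjusted p = 0.0204) that did not pass without control replicate 1 (0.39), without control replicate 2 (0.48) or without TPA replicate 2 (0.38). With no minimum level, GRK2, GRK5, GRK6 and SNX13 did not pass.

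Among effectors and modulators, 16 of 30 listed genes were tested: 7 rose, 4 fell and 5 did not pass, with a median log2 difference of 0.15, beside 28.4% that rose and 29.8% that fell among all genes tested. The adenylyl cyclase genes went both ways. ADCY6 rose from 7.14 ± 0.310 to 84.9 ± 2.39 RPKM (log2 difference 3.40, SE 0.129, adjusted p = 6.61e-07), whereas ADCY3 fell from 17.9 ± 0.103 to 5.14 ± 0.338 RPKM and ADCY9 from 4.76 ± 0.404 to 2.25 ± 0.00566 RPKM. PIK3CG, the catalytic subunit of the lipid kinase driven by βγ subunits, rose from 13.3 ± 0.158 to 47.8 ± 5.51 RPKM, and PREX1, a Rac exchange factor that βγ subunits activate, rose from 1.37 ± 0.135 to 10.2 ± 0.691 RPKM. GPSM2, which binds inactive Gi α subunits at the mitotic cell cortex, fell from 14.8 ± 1.22 to 2.54 ± 0.308 RPKM.

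**Figure D4:**
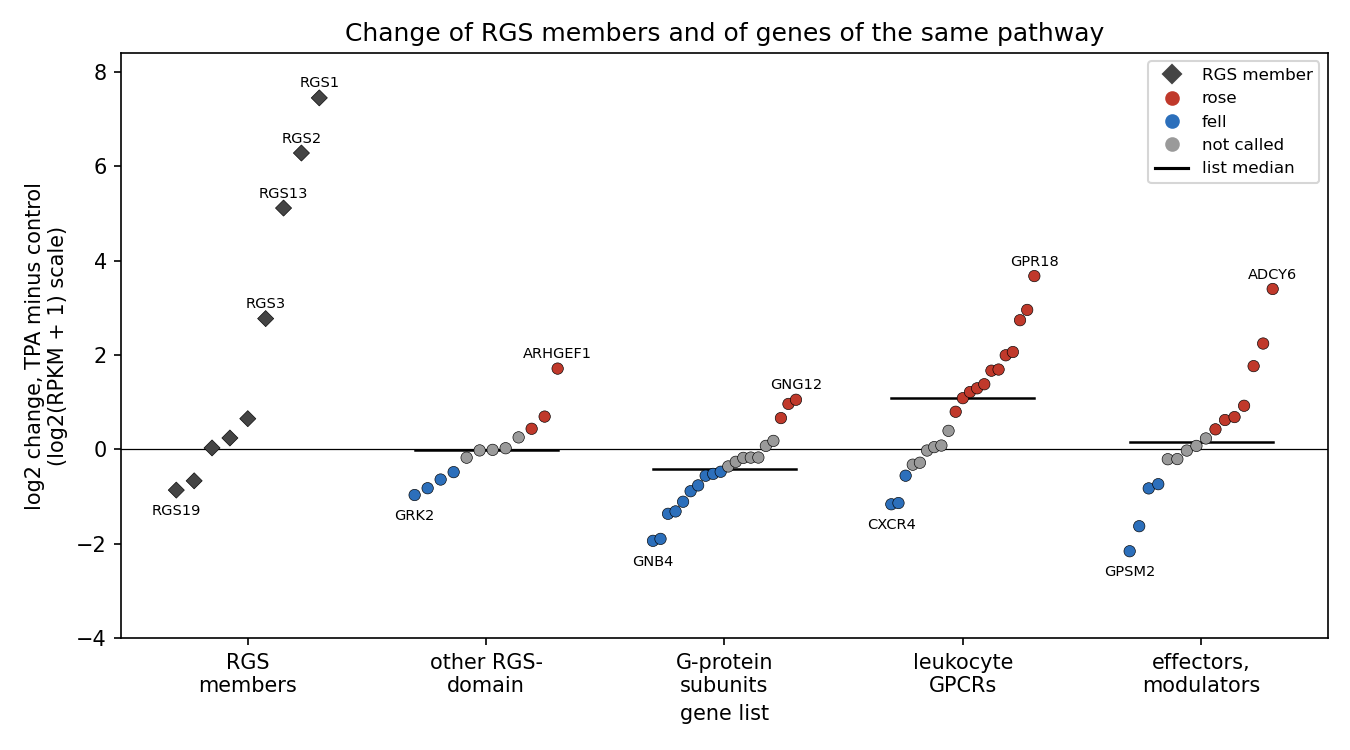
log2 difference (TPA minus control, log2(RPKM + 1) scale) of each tested gene in 5 groups, in rising order within a group, with calls in colour for the 4 pathway lists and a line at each list's median. The receptor line, at 1.09, covers all 21 tested receptors, including those whose direction was fixed by the minimum level. Over the 14 that reached 1 RPKM in both groups the median was 0.24. The RGS members are drawn in dark grey with no call, and RGS1, RGS2 and RGS13 lie above every gene of the other lists. Nothing is read from this, since the members were chosen with this contrast in view. RGS1 and RGS13 also passed the minimum only through their TPA libraries.

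For reference, ACTB stood at 1720 ± 69.4 RPKM in control and 1675 ± 70.2 RPKM with TPA and did not pass (limma, adjusted p = 0.826). GAPDH had 1876 ± 365 and 1067 ± 171 RPKM and fell (adjusted p = 0.00625).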

How the data were processed

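Total RNA of parental 697 cells was sequenced in 2 control and 2 TPA libraries, grouped and numbered from their titles. The authors deposited 1 table of RPKM values, per the file headers, with 1 accession per gene. CASAVA 1.8, Bowtie 1.12, TopHat, SAMtools and HOMER and the build hg19 are named in the submitters' processing notes. Strand use and the handling of reads that map to several places are not stated in any source used here, so overlapping and near-identical genes are uncertain.

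Read steps were taken from microRNA hairpin genes with RefSeq lengths: 98.0% to 98.6% of their values up to 10 reads lay within 0.05 of a whole number of reads. Transcript lengths of the members were not used, so no counting interval is given.

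The 12159 of 27142 genes that reached 1 RPKM in 2 or more of the 4 libraries were fitted as log2(RPKM + 1) with limma 3.58.1 in R 4.3.3 (trended prior, 5.88 prior and 2 residual degrees of freedom, two-sided, Benjamini-Hochberg over all genes tested, threshold 0.05). Differences on this scale understate changes of low genes. P-values measure only the spread between these libraries. The fit was tested on simulated data. Figures were drawn with matplotlib 3.10.9.

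The members and the 4 pathway lists were chosen with earlier results of these data known. The genes named are all members, the 3 list genes with the smallest p in each direction, the 3 nearest genes to RGS1, RGS2 and RGS16, neighbours of the 1q members, and ACTB and GAPDH; RGS5, RGS8, RGS21, RGSL1, the R7 genes, UCHL5, TROVE2, CDC73, GLRX2 and the marker genes given with values were named after their values were seen. Order along the chromosome and sequences came from RefSeq, GRCh38.p14, matched by symbol, with windows for all 10 members. Protein sequences were not used here, and 1 gene named by the rule is not reported here. The receptor counts over genes at 1 RPKM or more in both groups were added after the data were seen. Alternatives were other pseudocounts, filters and scalings, no trend, a replicate block and each library left out.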

Additional observations from a re-analysis of the deposited data

How the results depend on the processing

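With no filter 4611 of 27142 genes passed, against 7075 of 12159. The members called, a count from which nothing is read, then went from 7 to 4, without RGS10, RGS16 and RGS19. The subunit list went from 13 calls to 6 and the other RGS-domain list from 7 to 4, and the prior degrees of freedom fell from 5.88 to 0.663. With the filter at 5 RPKM the receptor list had 11 genes tested and 8 calls, against 15 of 21. The log2 differences of RGS1, RGS3 and RGS13 were 8.51, 2.98 and 7.93 with a pseudocount of 0.1 and 7.94, 2.88 and 6.03 with 0.5, against 7.45, 2.77 and 5.11 with 1. Under 2 other scalings, no trend, the replicate block and each library left out, the counts stayed within 1.5 times. With 2 libraries a group, leaving 1 out cannot move a member's difference past the replicate spread, and the block and no trend leave it as it is, so these settings say nothing about how stable the member differences are. With 1 library left out, 6 to 8 members and 5470 to 6660 genes passed; the lone library is then assumed to vary like the other group, and without either control library the prior degrees of freedom were infinite. With the replicate number as a block (replicate block), 8234 genes and 7 members passed, and the lists had 7, 15, 17 and 12 calls (other RGS-domain, subunits, receptors, effectors), against 7, 13, 15 and 11. The deviations of same-numbered libraries correlated at 0.36 across genes, but with 2 pairs the labels give only a shared number. Depth limits RGS13 and RGS1 in control, at 0.631 to 45.2 reads per kilobase.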
